A study of Homo sapiens with 8 samples.

Results

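The genes described here are the ligands, receptors, caspases and BCL2 proteins of the apoptosis machinery, measured in 2 prostate cancer cell lines with activated Notch1. A list of 38 such genes was named, and a gene was kept when the array annotation gave a probe set its symbol and no other. By that rule 35 of the 38 genes were measured, out of 8226 named genes in all, through 67 probe sets. RIPK1, TRAF2 and BIRC3 were not analysed here. Where a gene had several probe sets (16 genes), the one with the highest mean over all arrays stands for it. The others are given beside it for some of these genes only.

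PC3, derived from a bone metastasis, and LNCaP, an androgen-responsive line from a lymph node metastasis, were each compared as cells overexpressing activated Notch1 against a GFP control. Each of the 4 groups (LNCaP GFP, LNCaP Notch1, PC3 GFP, PC3 Notch1) holds 2 arrays, numbered replicate 1 and replicate 2. The study speaks of duplicate chips, so the spread behind each p-value may be technical only. The sources used here do not name the vector, or the time of expression, for the profiled cells. PC3 cells are known to lack p53 and the androgen receptor and LNCaP cells to have both, so the lines differ in more than their response to Notch1.

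Apoptosis is run by caspases, proteases made as inactive precursors. In the extrinsic route a death ligand such as TNFSF10 (TRAIL) or FAS ligand binds its receptor, and adaptor proteins gather and activate the initiator CASP8 or CASP10. In the intrinsic route the BH3-only proteins release BAX and BAK1 from guardians such as BCL2 and MCL1, pores open in the mitochondrial membrane, and cytochrome c joins APAF1 and CASP9 in the apoptosome. Activated Notch1 enters the nucleus and works through the DNA-binding protein CSL. HES1, the classical target of that route, was read as a check: it was 2.56 log2 units higher with Notch1 in PC3 (adjusted p = 4.22e-07, limma) and 2.78 higher in LNCaP (adjusted p = 3.12e-07). The level of NOTCH1 itself was not analysed here.

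Promoter sequences are shown for 3 genes that changed in LNCaP, as the stretch where CSL or an interferon-driven factor could bind. The windows run from 250 bases before to 50 bases after the annotated start (RefSeq, GRCh38.p14), all on the minus strand, written 5′ to 3′ along the gene. TNFSF10 lies at chr3:172523381-172523680, CASP6 at chr4:109703396-109703695 and BAG1 at chr9:33264659-33264958. Capitals mark the interferon response element core (GAAA, any 2 bases, GAAA), read here on the opposite strand, in TNFSF10, and the CSL core TGGGAA in CASP6 and BAG1.
TNFSF10: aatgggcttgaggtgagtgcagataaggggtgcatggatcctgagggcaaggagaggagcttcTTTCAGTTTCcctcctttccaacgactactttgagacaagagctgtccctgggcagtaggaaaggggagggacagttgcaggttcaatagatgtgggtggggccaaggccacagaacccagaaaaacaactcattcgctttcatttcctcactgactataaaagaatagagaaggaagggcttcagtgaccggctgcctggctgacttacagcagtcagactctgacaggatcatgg
CASP6: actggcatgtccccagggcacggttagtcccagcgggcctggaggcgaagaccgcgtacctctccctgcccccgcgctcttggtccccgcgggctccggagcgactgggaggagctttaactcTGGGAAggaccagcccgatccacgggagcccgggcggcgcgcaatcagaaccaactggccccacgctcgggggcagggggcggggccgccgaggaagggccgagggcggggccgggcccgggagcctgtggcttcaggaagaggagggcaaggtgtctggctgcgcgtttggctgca
BAG1: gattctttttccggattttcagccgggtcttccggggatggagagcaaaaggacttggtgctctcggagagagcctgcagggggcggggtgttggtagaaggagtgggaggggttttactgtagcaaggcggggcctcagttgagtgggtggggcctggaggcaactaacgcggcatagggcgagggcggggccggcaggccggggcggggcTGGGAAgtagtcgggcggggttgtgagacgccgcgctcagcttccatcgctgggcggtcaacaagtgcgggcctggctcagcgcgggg
The interferon core was searched for after the TNFSF10 sequence had been seen. Of the 35 genes, 25 have an entry in the promoter table, with 44 promoters among them, and both strands were searched. TGGGAA was present in 14 of the 44 promoters (31.8%), against 24.0% of all 35116 promoters of that length, and the stricter GTGGGAA, which contains it, in 3 (6.82%), against 6.25%. The interferon core was present in 4 (9.09%), against 3.57%. TGGGAA was found for 11 of the 25 genes, against 28.1% of all genes. A gene with more promoters has more chances of a match. All 35116 promoters belong to 27305 genes. CASP2, CASP6 and BAG1 carry TGGGAA and were called with Notch1, all in LNCaP, where 9 of the 35 genes were called. APAF1, BAK1, BID, BNIP2, CASP8, FAS, TNFRSF1A and XIAP carry it and were not called in either line. The stricter site was found for APAF1 and XIAP only, against 7.62% of all genes. The interferon core was found for 4 of the 25 genes, against 4.38% of all genes. Besides TNFSF10 these were BCL2A1, BNIP2 and CASP8, which were not called. The TNFSF10 window holds no TGGGAA. These are matches of letters, and no binding was measured.

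In PC3 only 2 of the 35 genes passed the test. DAXX was higher and CASP4 lower with Notch1, and 33 genes were not called at an adjusted p under 0.05. Over all named genes 6.58% were called, 4.36% higher and 2.21% lower, so the share of these genes called (5.71%) is near that of all genes. In LNCaP 9 of the 35 genes passed (25.7%), against 18.6% of all genes. TNFSF10, DAXX, CASP2, CASP6 and BAX were higher, where 8.47% of all genes were, and BCL2L2, BIK, BAG1 and DFFB were lower, where 10.2% of all genes were. A change of 2-fold or more with a call was seen in LNCaP for TNFSF10 and DFFB, against 4.57% of all genes.

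The sizes of the changes were small for most of the list. The median absolute change was 0.19 log2 units in PC3, as over all genes, and 0.26 in LNCaP, where it was 0.18 over all genes. The median signed change was 0.11 in PC3 (all genes -0.07) and 0.00 in LNCaP (all genes 0.04). The arrays of Notch1 and GFP cells did not overlap for 17 genes in PC3, 11 above and 6 below, where 57.1% of all genes did not overlap. In LNCaP they did not overlap for 21 genes, 11 above and 10 below, where 59.0% of all genes did not.

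**Figure D1:**
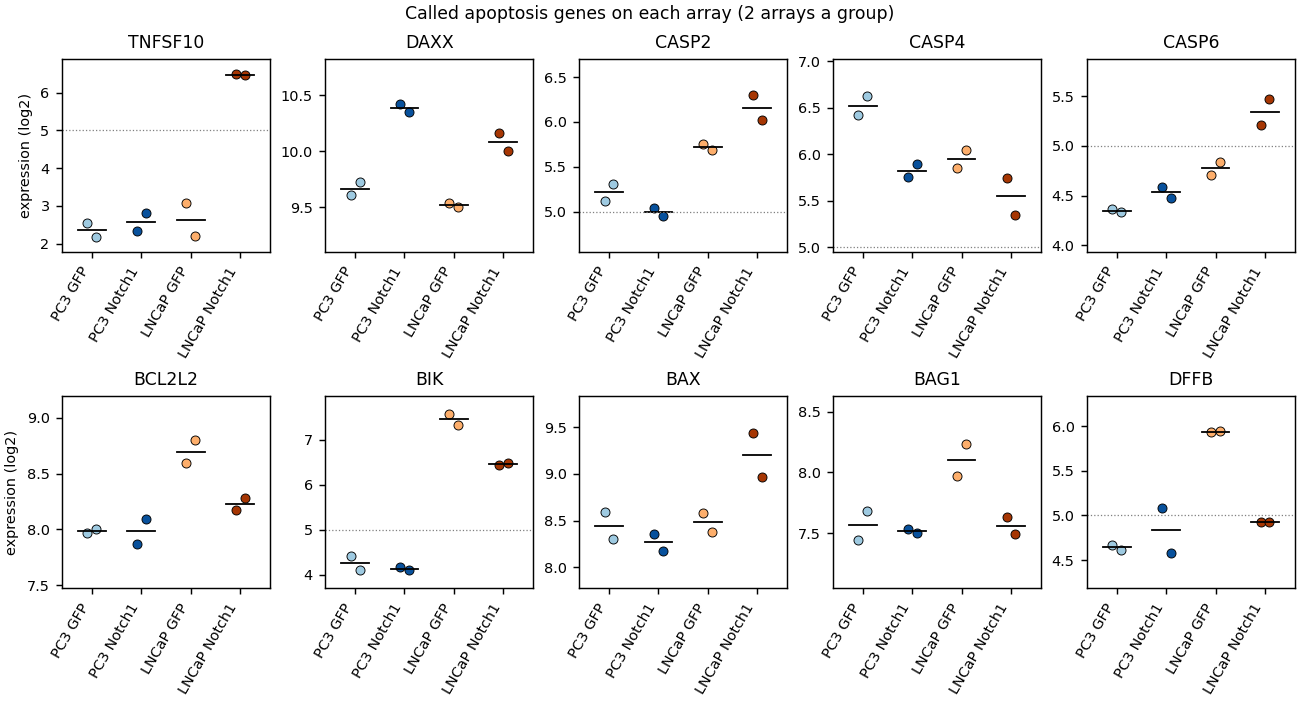
Expression (log2, vertical axis) of the 10 genes called in either line, with 1 point an array, 2 arrays a group and a bar at the group mean. The dotted line marks log2 5, and each panel has its own scale. TNFSF10 lies near 2 to 3 on all arrays but those of LNCaP Notch1, while DAXX is raised by Notch1 in both lines.

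**Figure D2:**
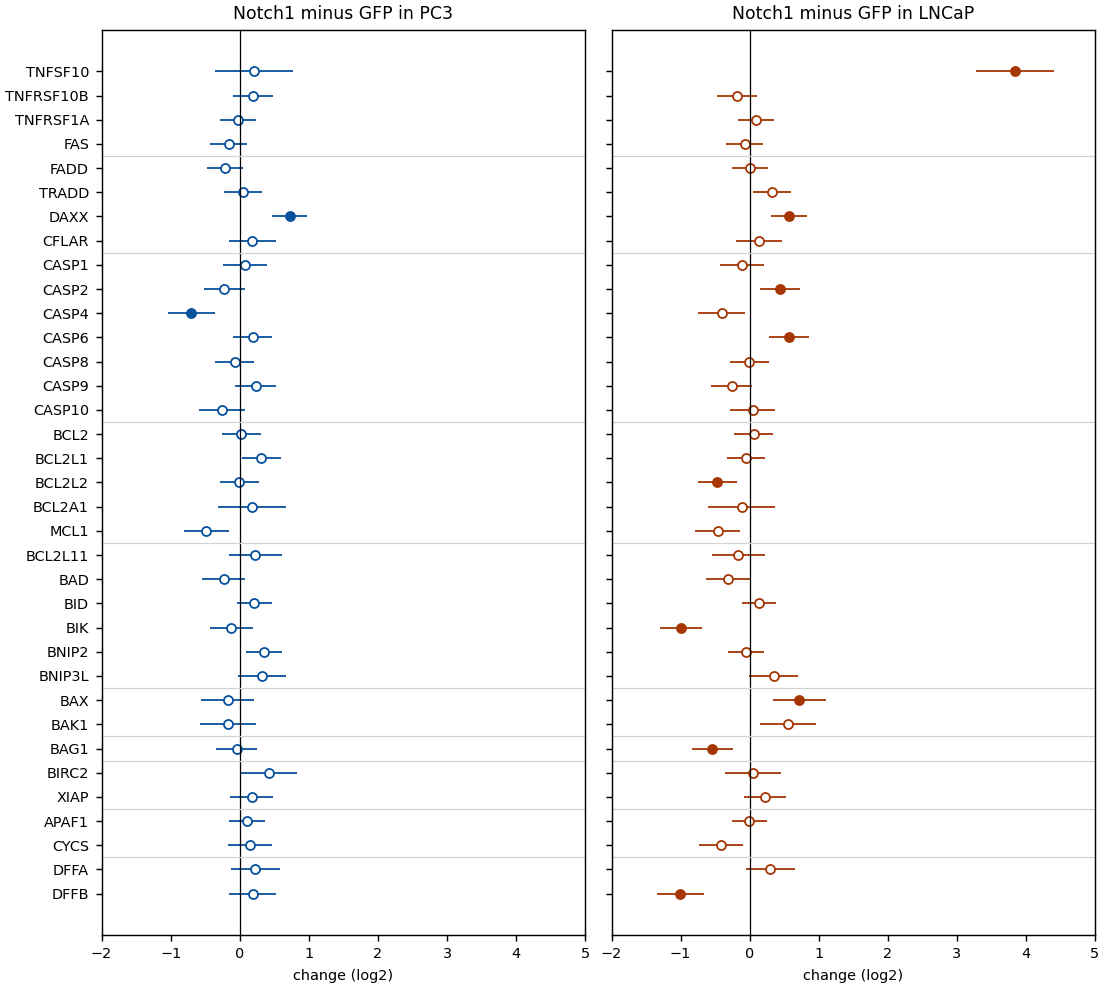
Change with Notch1 (Notch1 minus GFP, log2, horizontal axis) of the 35 genes in PC3 (left) and LNCaP (right), grouped by role, with 95% confidence intervals from limma. Filled points have an adjusted p under 0.05. There are 2 filled points in PC3 and 9 in LNCaP, and TNFSF10 in LNCaP stands at 3.84.

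The death ligand TNFSF10, which kills through the TRAIL receptors, had the widest change of the list. It read 2.55 and 2.18 in PC3 GFP, 2.34 and 2.80 in PC3 Notch1, 3.06 and 2.20 in LNCaP GFP, and 6.49 and 6.46 in LNCaP Notch1. Both LNCaP Notch1 arrays were far above the other 6, which overlapped one another and lay in the low range where signal and background are hard to tell apart. In LNCaP the change was 3.84 ± 0.25 log2 units (SE, n = 2 arrays a group; 14.3-fold; adjusted p = 4.53e-06, limma). With all values under log2 5 raised to log2 5 the change was 1.47, so its size depends on the reading of the low arrays. In PC3 the change was 0.21 (95% interval -0.35 to 0.77). An array averages over a culture, so more cells with a transcript and more transcript per cell cannot be told apart, here and for the genes that follow.

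The 3 receptors of the list, TNFRSF10B, TNFRSF1A and FAS, were not called at their chosen probe sets. TNFRSF10B, the TRAIL receptor DR5, read 8.59 and 8.58 in PC3 GFP, 8.91 and 8.64 in PC3 Notch1, 10.30 and 10.17 in LNCaP GFP, and 10.15 and 9.95 in LNCaP Notch1. Its values shifted up in PC3 by 0.19 and down in LNCaP by -0.18, without overlap of the arrays, and neither change was called (adjusted p = 0.380 and 0.418, limma). TNFRSF1A, the main TNF receptor, changed by -0.03 in PC3 (95% interval -0.29 to 0.24) and 0.10 in LNCaP (-0.17 to 0.36). FAS, the receptor of FAS ligand, is read by 6 probe sets. The one with the highest mean changed by -0.16 in PC3 and -0.07 in LNCaP. Another, 37644_s_at, was 0.56 higher with Notch1 in LNCaP (adjusted p = 0.0467), from a mean of 4.75 to 5.31, and the other 4 changed by 0.09 to 0.49 there and were not called. In PC3 the 6 probe sets changed by -0.45 to -0.04, and none was called. The FAS change in LNCaP minus that in PC3 was not called at the chosen probe set (0.09). It was called at 37644_s_at (0.94; adjusted p = 0.0272, limma) and for the mean of the probe sets (0.54; adjusted p = 0.0336).

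Among the adaptors DAXX, a nuclear histone chaperone that also binds the FAS receptor, was the one gene called in both lines. It read 9.61 and 9.73 in PC3 GFP, 10.42 and 10.35 in PC3 Notch1, 9.54 and 9.50 in LNCaP GFP, and 10.16 and 10.01 in LNCaP Notch1. Every Notch1 array lay above every GFP array. The gain was 0.72 ± 0.12 log2 units in PC3 (SE, 1.65-fold; adjusted p = 0.00515, limma) and 0.57 ± 0.12 in LNCaP (1.48-fold; adjusted p = 0.00715). The change in LNCaP minus that in PC3 was -0.15 (95% interval -0.52 to 0.21; adjusted p = 0.537). Its other probe set, 1754_at, gave 0.73 in PC3 (adjusted p = 0.0108) and 0.50 in LNCaP (adjusted p = 0.0264). The call in PC3 was lost without PC3 Notch1 replicate 1, where the adjusted p rose to 0.0668. The call in LNCaP was lost without LNCaP GFP replicate 2 and without LNCaP Notch1 replicate 1, where it reached 0.0617.

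The other adaptors were not called in either line. FADD, which links death receptors to CASP8, changed by -0.22 in PC3 and 0.01 in LNCaP. TRADD, the adaptor of the TNF receptor, changed by 0.05 and 0.33 (adjusted p = 0.106 in LNCaP, limma). The other TRADD probe set, 33166_at, changed by -0.30 in PC3 and -0.01 in LNCaP. CFLAR, the CASP8-like protein FLIP that blocks the initiator, changed by 0.18 in PC3 (95% interval -0.16 to 0.52) and 0.14 in LNCaP (-0.20 to 0.48). Its other probe sets changed by -0.19 and -0.22 in PC3 and by -0.09 and -0.23 in LNCaP.

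Of the 7 caspases measured, 1 fell in PC3 and 2 rose in LNCaP. CASP4, an inflammatory caspase that senses bacterial lipopolysaccharide, read 6.42 and 6.62 in PC3 GFP, 5.75 and 5.89 in PC3 Notch1, 5.85 and 6.04 in LNCaP GFP, and 5.74 and 5.35 in LNCaP Notch1. Notch1 arrays lay below GFP arrays in each line. The change was -0.70 ± 0.15 in PC3 (SE; 1.63-fold lower; adjusted p = 0.0247, limma) and -0.40 ± 0.15 in LNCaP (adjusted p = 0.106). The call in PC3 was lost without PC3 GFP replicate 2 or either PC3 Notch1 array, with changes from -0.80 to -0.60 over all alternatives. The fit with low values raised to log2 5 left the change as it was and lost the call.

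CASP6, an executioner that cuts nuclear lamins, read 4.36 and 4.33 in PC3 GFP, 4.59 and 4.48 in PC3 Notch1, 4.71 and 4.84 in LNCaP GFP, and 5.21 and 5.48 in LNCaP Notch1. The Notch1 arrays were the higher in each line, and only those of LNCaP Notch1 passed log2 5. The change was 0.57 ± 0.13 in LNCaP (1.48-fold; adjusted p = 0.0110, limma) and 0.19 in PC3 (95% interval -0.10 to 0.47). In LNCaP the call was lost with low values raised to log2 5, which brought the change to 0.34, without LNCaP GFP replicate 1 and without LNCaP Notch1 replicate 2.

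CASP2, an initiator found in the nucleus, read 5.12 and 5.31 in PC3 GFP, 5.04 and 4.95 in PC3 Notch1, 5.76 and 5.69 in LNCaP GFP, and 6.30 and 6.02 in LNCaP Notch1. With Notch1 the arrays were lower in PC3 and higher in LNCaP. The change was 0.44 ± 0.13 in LNCaP (adjusted p = 0.0449, limma) and -0.22 ± 0.13 in PC3 (adjusted p = 0.309). This was the least stable call of the list in LNCaP: it was lost under 10 of 16 alternatives, among them both other scalings, the leaving out of PC3 Notch1 replicate 1 or 2, LNCaP GFP replicate 1 or 2, or LNCaP Notch1 replicate 1. Its other 3 probe sets gave 0.46, 0.30 and 0.38 in LNCaP, and none of them was called.

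The caspases that start the 2 classical routes were not called. CASP8 changed by -0.07 in PC3 (95% interval -0.36 to 0.21) and by 0.00 in LNCaP (-0.29 to 0.28). CASP9, the apoptosome's initiator, read 7.08 and 6.82 in PC3 GFP, 7.06 and 7.30 in PC3 Notch1, 6.39 and 6.39 in LNCaP GFP, and 6.18 and 6.08 in LNCaP Notch1. Its change was 0.23 in PC3 and -0.26 in LNCaP (adjusted p = 0.297 and 0.242, limma). Its other probe set, 486_at, changed by -0.05 in each line. CASP10 changed by -0.26 and 0.04, and CASP1, the caspase that matures interleukin-1β, was under log2 5 on every array.

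Among the guardians of the outer mitochondrial membrane BCL2L2 (BCL-W) fell in LNCaP. It read 7.97 and 8.01 in PC3 GFP, 7.87 and 8.09 in PC3 Notch1, 8.60 and 8.80 in LNCaP GFP, and 8.17 and 8.28 in LNCaP Notch1. The LNCaP Notch1 arrays lay below the LNCaP GFP arrays and above all of PC3, whose groups overlapped. The change was -0.47 ± 0.13 in LNCaP (1.38-fold lower; adjusted p = 0.0286, limma) and -0.01 in PC3. The call was lost without LNCaP GFP replicate 2 or either LNCaP Notch1 array. The fit with low values raised to log2 5 left the change as it was and lost the call.

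MCL1, a short-lived guardian, was lower on every Notch1 array than on any GFP array of its line, but it was not called. It read 9.90 and 9.96 in PC3 GFP, 9.45 and 9.44 in PC3 Notch1, 8.80 and 9.03 in LNCaP GFP, and 8.64 and 8.26 in LNCaP Notch1. The change was -0.48 in PC3 (95% interval -0.81 to -0.16; adjusted p = 0.0795, limma) and -0.46 in LNCaP (-0.79 to -0.14; adjusted p = 0.0517). Its second probe set gave -0.49 and -0.32. In LNCaP MCL1 passed the threshold under 8 of 16 alternatives, among them the replicate block (adjusted p = 0.0423).

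BCL2 itself changed by 0.02 in PC3 (95% interval -0.26 to 0.30) and 0.06 in LNCaP (-0.22 to 0.34). Of its other 4 probe sets 1909_at was 0.45 higher in LNCaP (adjusted p = 0.0225), from a mean of 4.80 to 5.25, and the rest were not called. BCL2L1 (BCL-XL) changed by 0.31 in PC3 (adjusted p = 0.160) and -0.05 in LNCaP. BCL2A1 was under log2 5 on every array.

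The pore formers BAX and BAK1 were measured as higher with Notch1 in LNCaP, BAX with a call. BAX read 8.59 and 8.30 in PC3 GFP, 8.36 and 8.17 in PC3 Notch1, 8.58 and 8.38 in LNCaP GFP, and 9.44 and 8.96 in LNCaP Notch1. The LNCaP Notch1 arrays were the highest of the 8, and the other 6 lay between 8.17 and 8.59. The change was 0.72 ± 0.17 in LNCaP (1.65-fold; adjusted p = 0.0158, limma) and -0.18 ± 0.17 in PC3 (adjusted p = 0.537). Its 5 probe sets disagreed in LNCaP: 2067_f_at gave 0.61 (adjusted p = 0.0198), 2065_s_at 0.56 (adjusted p = 0.0545), 1998_i_at 0.06 and 2066_at -0.08. The mean of the probe sets gave 0.37 and was not called, nor was BAX without LNCaP GFP replicate 2 or without LNCaP Notch1 replicate 1. The fit with low values raised to log2 5 left the change as it was and lost the call.

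BAK1 read 6.76 and 6.52 in PC3 GFP, 6.62 and 6.32 in PC3 Notch1, 6.71 and 6.34 in LNCaP GFP, and 7.29 and 6.87 in LNCaP Notch1. As for BAX, replicate 1 was above replicate 2 in each group. The change in LNCaP was 0.55 ± 0.18 (adjusted p = 0.0662, limma), and with the replicate number as a block it passed (adjusted p = 0.00386). Its second probe set gave 0.12.

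**Figure D3:**
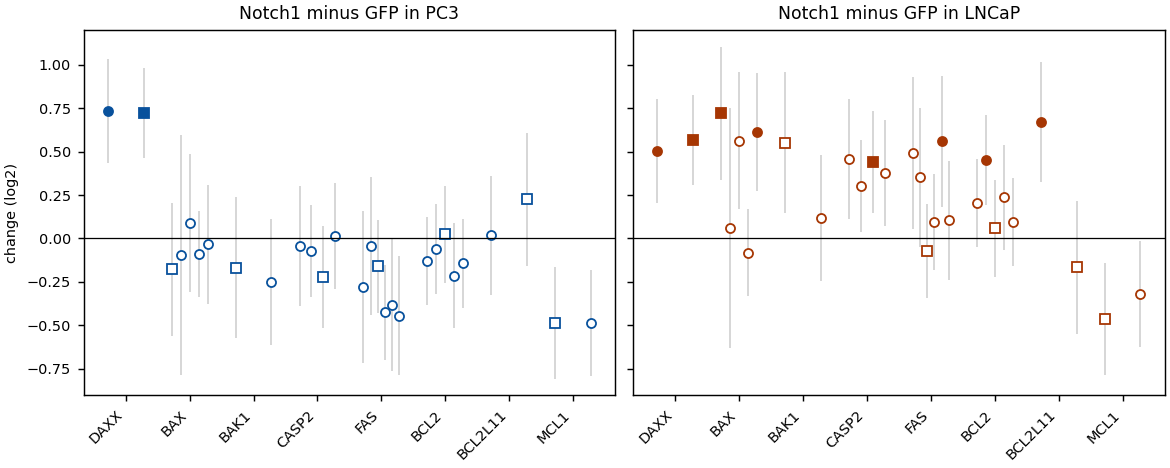
Change with Notch1 (log2, vertical axis) at every probe set of 8 genes that have several, in PC3 (left) and LNCaP (right), with 95% confidence intervals in grey. Squares are the probe sets that stand for the gene, circles the others, and filled symbols have an adjusted p under 0.05. Both DAXX probe sets are filled in both panels, while those of BAX in LNCaP range from -0.08 to 0.72.

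Of the BH3-only and related proteins, which set off the pore formers or bind BCL2, BIK fell in LNCaP. BIK, a BH3-only protein of the endoplasmic reticulum, read 4.41 and 4.10 in PC3 GFP, 4.18 and 4.10 in PC3 Notch1, 7.57 and 7.33 in LNCaP GFP, and 6.43 and 6.48 in LNCaP Notch1. The arrays separated cleanly in LNCaP and stayed under log2 5 in PC3. The change was -0.99 ± 0.14 in LNCaP (1.99-fold lower; adjusted p = 0.000688, limma) and -0.12 in PC3 (95% interval -0.43 to 0.19). In LNCaP it was called under every alternative.

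The others of this group were not called. BAD changed by -0.23 in PC3 and -0.32 in LNCaP, and BID, which CASP8 cleaves to link the 2 routes, by 0.21 and 0.13. BNIP3L (NIX), a receptor for the removal of mitochondria, read 9.86 and 10.28 in PC3 GFP, 10.31 and 10.47 in PC3 Notch1, 10.17 and 10.45 in LNCaP GFP, and 10.67 and 10.64 in LNCaP Notch1, with changes of 0.32 and 0.35 (adjusted p = 0.235 and 0.178). BNIP2 changed by 0.35 in PC3 (adjusted p = 0.109) and -0.05 in LNCaP. BCL2L11 (BIM) was under log2 5 on every array of its chosen probe set, with a change of -0.17 in LNCaP, and its other probe set, 31611_s_at, was 0.67 higher there (adjusted p = 0.0128), also under log2 5 in its group means.

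BAG1, a cochaperone of HSP70 that binds BCL2, fell in LNCaP. It read 7.44 and 7.68 in PC3 GFP, 7.53 and 7.50 in PC3 Notch1, 7.97 and 8.23 in LNCaP GFP, and 7.63 and 7.49 in LNCaP Notch1. The LNCaP Notch1 arrays lay in the range of the PC3 arrays, and the LNCaP GFP arrays above it. The change was -0.54 ± 0.14 in LNCaP (1.45-fold lower; adjusted p = 0.0200, limma) and -0.05 in PC3. The call was lost without LNCaP GFP replicate 2 or either LNCaP Notch1 array. The fit with low values raised to log2 5 left the change as it was and lost the call.

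Neither inhibitor of apoptosis measured was called. BIRC2 (cIAP1), a ubiquitin ligase of the TNF receptor complex, read 5.72 and 6.18 in PC3 GFP, 6.18 and 6.55 in PC3 Notch1, 7.41 and 7.68 in LNCaP GFP, and 7.49 and 7.70 in LNCaP Notch1. Replicate 2 was the higher in each group. The change in PC3 was 0.42 ± 0.18 (adjusted p = 0.189, limma), and with the replicate block it passed (adjusted p = 0.0355). XIAP, which binds active caspases, changed by 0.17 in PC3 and 0.22 in LNCaP, under log2 5 on every array.

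Of the apoptosome, APAF1, its scaffold, changed by 0.11 in PC3 (95% interval -0.15 to 0.36) and 0.00 in LNCaP (-0.26 to 0.25), also under log2 5 throughout. CYCS, cytochrome c, read 11.45 and 11.71 in PC3 GFP, 11.61 and 11.84 in PC3 Notch1, 11.46 and 11.70 in LNCaP GFP, and 11.13 and 11.20 in LNCaP Notch1. Both LNCaP Notch1 arrays were below the other 6. The change was -0.42 in LNCaP (adjusted p = 0.0737, limma), and with the replicate block it passed (adjusted p = 0.0171).

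The DNA fragmentation factor pairs the nuclease DFFB (CAD), which cuts DNA between nucleosomes, with its chaperone and inhibitor DFFA (ICAD). DFFB read 4.67 and 4.62 in PC3 GFP, 5.08 and 4.58 in PC3 Notch1, 5.93 and 5.94 in LNCaP GFP, and 4.93 and 4.93 in LNCaP Notch1. The LNCaP GFP arrays stood above all the rest, and LNCaP Notch1 lay within the range of PC3 Notch1. The change was -1.005 ± 0.15 in LNCaP (2.01-fold lower; adjusted p = 0.00115, limma) and 0.19 in PC3 (95% interval -0.15 to 0.53). The call in LNCaP was kept under every alternative, with -0.93 where low values were raised to log2 5. DFFA changed by 0.22 in PC3 and 0.30 in LNCaP and was not called (adjusted p = 0.398 and 0.252).

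Whether Notch1 acted differently in the lines was tested as the change in LNCaP minus the change in PC3. Of the 35 genes 5 passed (14.3%), against 15.2% of all genes, which is near the background. TNFSF10 differed by 3.63 (adjusted p = 0.000138, limma), or by 1.47 with low values raised to log2 5, since 6 of its arrays lie near background. BAX differed by 0.90 (adjusted p = 0.0359) and CASP2 by 0.66 (adjusted p = 0.0412), where 6.86% of all genes differed upward. DFFB differed by -1.19 (adjusted p = 0.00504) and BIK by -0.87 (adjusted p = 0.0159), where 8.34% of all genes differed downward. DFFB was called under every alternative. TNFSF10 was called under all 14 that could test it, as the filter on level left it out. CASP2 was lost under 10 of 15, among them the fits without PC3 GFP replicate 2, either PC3 Notch1 array, either LNCaP GFP array or LNCaP Notch1 replicate 1. BAX was lost under 8 of 15, among them the fits without PC3 GFP replicate 1, either PC3 Notch1 array, LNCaP GFP replicate 2 or LNCaP Notch1 replicate 1. BIK was lost under 4 of 15, those without PC3 Notch1 replicate 1, LNCaP GFP replicate 1 or either LNCaP Notch1 array. Over all alternatives the difference ranged from 0.47 to 0.80 for CASP2, from 0.44 to 1.13 for BAX and from -1.03 to -0.72 for BIK. The difference was not called for CASP4, CASP6, BCL2L2 and BAG1 (adjusted p = 0.358, 0.172, 0.110 and 0.109), so these were called in 1 line and not shown to differ between the lines. With the replicate block BCL2L2 (adjusted p = 0.0465), BAK1 (0.00786) and CYCS (0.0246) also passed.

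The control groups of the lines differed at 23 of the 35 genes (65.7%), against 59.6% of all genes. LNCaP GFP was higher than PC3 GFP at 13 genes and lower at 10, where 39.8% of all genes were higher and 19.8% lower. A difference of 2-fold or more was called for 10 genes, against 26.3% of all. The median over all probe sets was itself 0.22 higher in LNCaP GFP, and the split was 7 higher and 12 lower with each array centred on its median and 8 and 11 after quantile normalization. Of the 23 calls 13 were kept under every alternative.

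On the values as deposited the widest of these differences was at CFLAR. It read 6.96 and 7.35 in PC3 GFP, 7.23 and 7.44 in PC3 Notch1, 2.75 and 2.67 in LNCaP GFP, and 2.74 and 2.95 in LNCaP Notch1. The lines did not come near each other at this probe set. LNCaP GFP was -4.45 ± 0.15 from PC3 GFP (21.8-fold lower; adjusted p = 1.56e-09, limma), or -2.16 for CFLAR with low values raised to log2 5. A second probe set, 1868_g_at, had means of 6.71 and 2.04, while 32746_at had 3.87 and 4.30, so the probe sets of CFLAR disagree. BIK was the reverse, 3.19 higher in LNCaP GFP (9.14-fold; adjusted p = 1.10e-08), or 2.45 with low values raised to log2 5, which is wider than CFLAR on that scale.

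Of the receptors TNFRSF10B was 1.65 higher in LNCaP GFP (adjusted p = 1.31e-06, limma) and TNFRSF1A lower, at -1.15 (adjusted p = 9.28e-06). FAS was not called at its chosen probe set (0.27), and its probe sets disagreed. Of the others, 1440_s_at was 3.33 higher (means of 3.45 in PC3 GFP and 6.78 in LNCaP GFP) and 37644_s_at 1.19 higher. FAS 37643_at was called lower, at -0.33, and 1441_s_at and 389_s_at were not called. The mean of the FAS probe sets was 0.81 higher in LNCaP GFP and was called. Both inhibitors of apoptosis were higher, BIRC2 by 1.59 (adjusted p = 2.26e-05) and XIAP by 0.61 (adjusted p = 0.00307). The call of XIAP was lost under both other scalings and with low values raised to log2 5, which all its values are under. DFFB was 1.29 higher and its partner DFFA lower, at -1.52. BNIP2 was 1.13 higher, and BID and MCL1 were lower, at -1.19 and -1.01. TNFSF10, BAX, BAK1, BCL2, BCL2L1 and CYCS were not called between the control groups at their chosen probe sets, with differences from -0.11 to 0.27. Other probe sets were called higher in LNCaP GFP for BAX (2065_s_at, 0.58, and 2067_f_at, 0.61) and BCL2 (2060_at, 0.30). The remaining BAX and BCL2 probe sets were not called. Without LNCaP GFP replicate 2 the difference of TNFSF10 was 0.70 and was called.

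**Figure D4:**
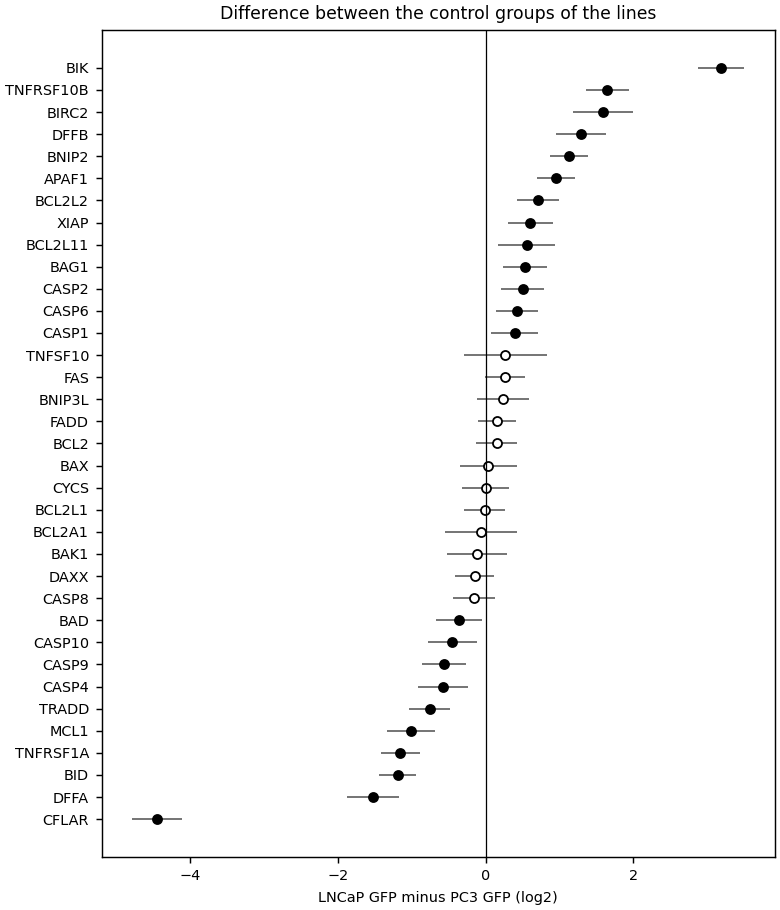
Difference between the GFP control groups (LNCaP GFP minus PC3 GFP, log2, horizontal axis) of the 35 genes, with 95% confidence intervals from limma and filled points for an adjusted p under 0.05. BIK is at 3.19 and CFLAR at -4.45, and 12 genes are open.

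A wider list of 58 other apoptosis genes had 39 measured. In PC3 5 rose and 0 fell, and in LNCaP 2 rose and 5 fell, with median changes of -0.04 and 0.00. Over all genes 4.36% rose and 2.21% fell in PC3 and 8.47% rose and 10.2% fell in LNCaP, and the 7 of 39 called in LNCaP are near that background. In PC3 these were PMAIP1 (0.99), the BH3-only protein NOXA, PAWR (0.86), a proapoptotic zipper protein, TNFRSF21 (0.84), the death receptor DR6, TRAF3 (0.64), a signalling adaptor of TNF receptors, and CRADD (0.44), the adaptor of CASP2. In LNCaP TNFRSF10D (0.74), a decoy receptor for TRAIL, and TIA1 (0.68), an RNA-binding protein, rose. DAPK1 (-1.14), a death-associated kinase, PMAIP1 (-0.79), MAP3K5 (-0.67), the stress kinase ASK1, BNIP1 (-0.53) and CRADD (-0.37) fell. DAPK1 was under log2 5 on every array, so its change is 0.00 once low values are raised to log2 5. Of these calls only TNFRSF10D and TIA1 in LNCaP were kept under every alternative, and PAWR in PC3 fell to 0.37 and lost its call with the mean of its probe sets.

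PMAIP1 and CRADD passed in each line in opposite directions. PMAIP1 read 7.81 and 8.24 in PC3 GFP, 8.91 and 9.12 in PC3 Notch1, 7.84 and 8.23 in LNCaP GFP, and 7.27 and 7.22 in LNCaP Notch1. The control groups covered the same range, and the Notch1 arrays lay above it in PC3 and below it in LNCaP. Its change in LNCaP minus that in PC3 was -1.78 (adjusted p = 0.00118, limma). TNFRSF10D read 5.62 and 5.62 in PC3 GFP, 5.34 and 5.43 in PC3 Notch1, 7.32 and 7.17 in LNCaP GFP, and 8.02 and 7.94 in LNCaP Notch1, where it was highest. The calls of CRADD were lost under 11 of 16 alternatives in PC3 and 8 of 16 in LNCaP, and those of PMAIP1 under 2 and 4.

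**Figure D5:**
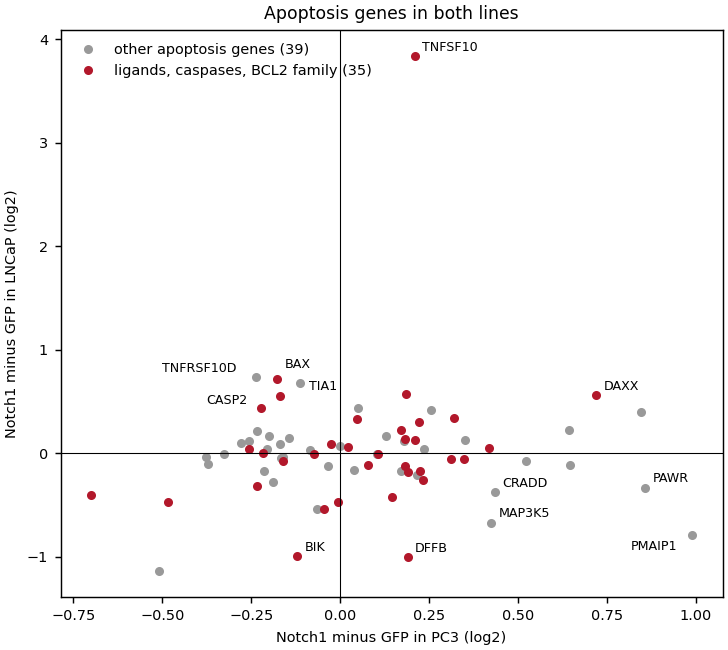
Change with Notch1 in PC3 (log2, horizontal axis) against that in LNCaP (log2, vertical axis), with 1 point a gene, for the 35 genes (red) and the 39 other apoptosis genes (grey). Names are given where the changes differ between the lines or pass in both. TNFSF10 lies at the top, PMAIP1 at the lower right and DAXX at the upper right.

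Programs that act on this machinery were read from lists. Of 11 p53 targets measured, 4 rose and 1 fell in PC3, and 4 rose and 2 fell in LNCaP, where 6.58% and 18.6% of all genes were called. The widest were PLK2 (2.83), a stress-induced kinase, and CDKN1A (1.74), the cell cycle inhibitor p21, in PC3, and TP53I3 (3.48), an oxidoreductase, and GDF15 (-0.93), a secreted stress factor, in LNCaP. GDF15 was also the 1 gene that fell in PC3, by more than in LNCaP (-1.48; adjusted p = 6.17e-05, limma). PLK2 in PC3 was mostly under log2 5, and its change is 0.22 and not called once low values are raised to log2 5. PMAIP1 and TNFRSF10D belong to the p53 list and to that of the other apoptosis genes, so their calls are counted in both.

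Of 25 interferon response genes 0 rose and 1 fell in PC3 (OAS1, -0.73), and 1 rose and 1 fell in LNCaP (IFIT1, 0.45, and ISG15, -0.57), with median changes of -0.19 in PC3 and 0.11 in LNCaP. Within each line these counts are below the shares of all genes called, 6.58% and 18.6%. The change in LNCaP minus that in PC3 was called higher for 4 of the 25 genes and lower for 0. Over all genes these shares were 6.86% and 8.34%. The call of IFIT1 in LNCaP was lost under 7 of 16 alternatives, both other scalings among them. Its change there is 0.00 once low values are raised to log2 5. The call of OAS1 in PC3 was lost under 3 and that of ISG15 in LNCaP under 2. Of 21 NF-kB targets 4 rose and 0 fell in PC3, where 4.36% of all genes rose, among them the chemokines CXCL6 (4.56, or 3.72 with low values raised to log2 5) and CXCL8 (3.40). In LNCaP 0 rose and 1 fell (TNFAIP2, -0.64), against 18.6% of all genes called. TNFAIP2 lost its call under 6 of 15 alternatives and was under log2 5 on every array, so its change is 0.00 once low values are raised.

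The labelled lines were checked against their markers. All 5 LNCaP markers measured were higher in LNCaP GFP and all 7 PC3 markers lower. With Notch1, 4 of the 5 LNCaP markers fell in LNCaP, where 10.2% of all genes did, and the log2 of their summed level went from 11.7 to 11.8 in LNCaP GFP to 10.9 to 11.1 in LNCaP Notch1. Of the 7 PC3 markers 5 rose in PC3, where 4.36% of all genes did, and 1 in LNCaP, where 8.47% did. The log2 of their summed level went from 13.4 to 13.6 in PC3 GFP to 14.0 to 14.1 in PC3 Notch1. In LNCaP it was 9.87 to 9.93 with GFP and 10.26 to 10.30 with Notch1. That of the LNCaP markers in PC3 was 10.16 to 10.23 with GFP and 9.88 to 9.91 with Notch1, with 0 of the 5 called there. No leukocyte or stromal marker was called in either line (9 and 6 measured; 2 to 3 and 2 of them under log2 5). The log2 of their summed level ran from 9.42 to 9.73 for leukocytes and from 9.20 to 9.62 for stroma over all arrays. The log2 ratio of 3′ to 5′ probe sets of GAPDH, a sign of RNA quality, was 0.55 and 0.57 in LNCaP GFP. It was 0.40 and 0.36 in LNCaP Notch1, and from -0.08 to 0.07 in PC3. For ACTB the ratio was 0.58 and 0.67 in LNCaP GFP and 0.38 and 0.52 in LNCaP Notch1. In PC3 that of ACTB was 0.32 and 0.43 with GFP and 0.28 and 0.39 with Notch1, so the lines lay closer than by GAPDH. The part of these shifts in the LNCaP results was not tested.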

How the data were processed

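Total RNA of 8 samples was hybridised to Affymetrix U95Av2 arrays. The authors processed the raw files with RMA and deposited the values as log2 expression, 1 per probe set; the sources used here state neither versions nor whether the lines were normalized together. Of 12625 probe sets 67 controls were left out and 12558 tested; 10943 have 1 gene symbol, 545 several and 1070 none. Symbols came from the platform annotation, and 10934 probe sets matched RefSeq (GRCh38.p14) by gene ID, with 0 symbols differing.

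All 8 arrays, in 4 groups of 2, were fitted in limma 3.58.1 (R 4.3.3; 4 residual and 6.37 prior degrees of freedom), with Benjamini-Hochberg adjustment over all 12558 probe sets and a call at an adjusted p under 0.05. The fit was tested on simulated data. Figures were drawn with matplotlib 3.10.9. The number of arrays limits the precision. Array medians were 5.95 to 6.01 in PC3 and 6.28 to 6.36 in LNCaP, and replicates correlated at 0.995 to 0.998.

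Deviations of same-numbered arrays from their group means correlated at 0.124 to 0.545 in the 6 pairs of groups. The replicate number, from the labels, may thus mark a pairing. The main fit left it out, and the fit with it as a block is an alternative. The other alternatives were median centring, quantile normalization, a filter at the 25th percentile of level, values under log2 5 raised to log2 5, the arrays of 1 line alone, an intensity trend, averaging over all probe sets of each gene, and leaving out each array.

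All 35 measured genes of the list are named, with HES1, up to 6 called genes of largest change per line from the other apoptosis genes, and up to 2 from each further list. Genes and lists were chosen with earlier results of these data known.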

Additional observations from a re-analysis of the deposited data

Results flagged for a closer look

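The change with Notch1 differed between the lines, by the test of the difference in limma, at 5 of the 35 genes and 6 of the 39 other apoptosis genes, both near the 15.2% of all genes. Among the former the change in LNCaP minus that in PC3 was 3.63 for TNFSF10 (1.47 with low values raised to log2 5), 0.66 for CASP2, 0.90 for BAX, -0.87 for BIK and -1.19 for DFFB. Among the latter it was 0.97 for TNFRSF10D and 0.80 for TIA1, and -0.81 for CRADD, -1.78 for PMAIP1, -1.19 for PAWR and -1.09 for MAP3K5. The calls for PAWR, CRADD and MAP3K5 were lost under 2, 1 and 1 of 15 alternatives, and that for TIA1 under 6. Groups of 2 arrays are too small to test for an array that stands apart.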

How the results depend on the processing

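Over the 35 genes, 2025 values under the alternatives kept their side of the threshold (107 of them, all uncalled, turned sign), 91 lost a call, 33 gained one and 1 called value turned its sign. That one was CASP10, whose difference between the control groups was 0.0066 with the mean of its probe sets. For PLK2 the change in LNCaP minus that in PC3 turned to 0.34 with low values raised to log2 5. With low values raised to log2 5 the count lower in PC3 was 0, the counts in LNCaP were 2 higher and 2 lower, the line difference had 1 higher, and the control groups 8 higher; that fit has 0.386 prior degrees of freedom, and CASP4, BCL2L2, BAX and BAG1, with no value under log2 5, lost their calls in it with their changes as they were. With median centring 1 gene differed upward between the lines and 7 between the controls, and with quantile normalization 8 did between the controls; the split in LNCaP was 4 higher and 6 lower with median centring and 4 and 5 after quantile normalization. With the replicate block the count higher in PC3 was 2 (DAXX, and BIRC2 at 0.42) and the count differing downward between the lines 4; beyond the genes given above, the block added TNFRSF21 in LNCaP (adjusted p = 0.0316), MAP3K5 in PC3 (0.0357), GDF15 (0.0288) and TNFAIP2 (0.0442) between the lines and FAS between the controls (0.0349), and changed no other call. Leaving out 1 array at a time gave 0 to 2 genes higher and 0 to 1 lower in PC3, 2 to 6 higher and 2 to 6 lower in LNCaP, 1 to 3 upward and 1 to 3 downward between the lines, and 10 to 14 higher and 7 to 10 lower between the controls. With 1 array left in a group, its spread is assumed to be that of the others. The causes were not tested. Of the 35 genes 5 were under log2 5 on all arrays and 7 on some, where signal over background limits what a change can show.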
